A study of Mus musculus with 6 samples.

Results

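The enzymes that make NAD, and those that spend it, were followed in neural stem and progenitor cells of adult mice with and without active SIRT1. The set was chosen by symbol, from what the enzymes do, and holds 10 genes: Nampt, Nmnat1, Nmnat2, Nmnat3, Nmrk1, Qprt, Nadk, Nadsyn1, Bst1 and Cd38. Of these, 9 were measured, each by 1 probe set that the platform annotation pairs with a single gene, out of 19937 genes measured in this way. No probe set is paired with Cd38 in the annotation used, so Cd38 was not analysed here.

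The study profiled 6 cultures on Affymetrix whole-transcript arrays, with 1 array per culture. The control group is 3 cultures from Sirt1lox/lox mice, which carry floxed Sirt1 alleles and no Cre, and the Sirt1 inactive group is 3 cultures from NestinCre;Sirt1lox/lox mice, in which the Nestin promoter drives Cre recombinase in neural stem and progenitor cells. All mice were of the 129SV strain and 8 weeks old, and all cells were grown with B27, EGF and bFGF, first as neurospheres and then attached to poly-D-lysine, and collected while dividing at passage 2. The labels do not give the number of mice behind a culture, and because no control carries Cre, loss of SIRT1 and the presence of Cre cannot be told apart.

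NAD carries electrons in metabolism and is also used up by enzymes that cleave it. SIRT1, a protein deacetylase, consumes 1 NAD for each acetyl group it removes, so its activity depends on the supply. Cells rebuild NAD mainly from nicotinamide, which NAMPT turns into nicotinamide mononucleotide (NMN) in the rate-limiting step of salvage. The NMNAT enzymes join NMN to ATP to give NAD, NMRK1 supplies NMN from nicotinamide riboside, and QPRT and NADSYN1 serve the routes that start from tryptophan and nicotinic acid. In the adult brain, NAMPT is known for its part in keeping neural stem cells dividing and in their production of oligodendrocytes.

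The promoter of Nampt is shown because circadian transcription factors, with SIRT1 in the same complex, are known to act on this gene through E-boxes. That of Nadk is shown because it was the only promoter of the set with the E-box searched for, and that of Qprt because Qprt had the smallest unadjusted p of the set. Each is the run of 250 bases before the start of transcription in RefSeq, build GRCm38.p6, read 5′ to 3′ on the gene's own strand. Capitals mark the E-box CACGTG, whose reverse complement is the same, and the GC box GGGCGG on either strand (CCGCCC when reversed). The 2 motifs shared 0 bases in these sequences.
Nampt, chr12:32820085-32820334, plus strand: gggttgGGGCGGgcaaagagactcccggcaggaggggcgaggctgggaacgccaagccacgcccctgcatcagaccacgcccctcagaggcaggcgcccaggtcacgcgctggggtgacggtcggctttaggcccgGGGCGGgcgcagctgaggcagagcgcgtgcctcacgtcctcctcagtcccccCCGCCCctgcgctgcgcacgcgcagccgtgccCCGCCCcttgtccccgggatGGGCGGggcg
Nadk, chr4:155563565-155563814, plus strand: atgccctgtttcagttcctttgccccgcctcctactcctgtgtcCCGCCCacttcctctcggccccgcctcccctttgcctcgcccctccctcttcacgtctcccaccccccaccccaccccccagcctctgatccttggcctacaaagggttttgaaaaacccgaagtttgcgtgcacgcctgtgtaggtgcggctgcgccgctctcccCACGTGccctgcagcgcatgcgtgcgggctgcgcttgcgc
Qprt, chr7:127122030-127122279, minus strand: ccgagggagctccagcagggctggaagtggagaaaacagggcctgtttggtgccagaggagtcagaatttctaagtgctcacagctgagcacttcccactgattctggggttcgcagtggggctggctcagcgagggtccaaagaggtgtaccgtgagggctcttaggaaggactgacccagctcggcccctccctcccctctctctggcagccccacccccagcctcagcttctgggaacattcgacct

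RefSeq gave 11 such promoters for 9 of the 10 genes, Bst1 being the gene not in the table. The Nampt sequence held 5 GC boxes and 0 E-boxes of these letters, with a G+C content of 75.6% against a median of 52.4% over all 32851 promoters. The second of 2 Nadk starts held 1 E-box and 1 GC box, and the Qprt sequence held neither. The E-box was present in 6.02% of all promoters and in 1 of the 11 of the set, and the GC box in 32.7% of all promoters and in 6 of the 11. By gene, the GC box was present in 5 of the 9, because the 2 Nmnat1 sequences overlap and hold the same GC box. A match describes the letters only.

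All values are log2 expression values made by the authors with RMA (robust multi-array average), which subtracts background, equalises the arrays and summarises the probes of each probe set. A difference is Sirt1 inactive minus control on that scale, which can understate the change in RNA, above all for dim probe sets. Array medians lay between 7.36 and 7.39. Of the markers of the labelled cell type, 8 of 9 stem and progenitor markers were brighter than the median on every array, with Nes between 11.55 and 11.70 and Sox2 between 11.60 and 11.78. Sirt1 itself read 8.73, 8.78 and 8.55 in control and 8.26, 8.33 and 8.25 in the Sirt1 inactive cultures, with no overlap. Its difference was -0.41 (SE 0.08; limma, adjusted p = 0.959; unadjusted p = 0.00101), and the labels do not say which part of the gene is floxed. Control replicate 3 stood farthest from the other arrays, with a median distance of 0.117 against 0.059 to 0.089 for the other 5, so differences that moved by over 1.5 times when it was left out are also given without it.

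None of the 9 NAD enzymes changed past the threshold of an adjusted p of 0.05, where the background was 0% of 22961 probe sets tested together. Their differences ran from -0.21 for Qprt to 0.32 for Nmrk1, with 6 above 0 and 3 below, while 60.1% of all probe sets were below 0. The median difference of the set was 0.03, beside -0.02 over all probe sets. By unadjusted p, 1 member (Qprt) was under 0.05, against 3.61% of all probe sets. The groups did not overlap for 3 members, Nmnat1, Qprt and Bst1, against 9.33% of all probe sets. With so few members, these counts single out nothing about the set.

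**Figure D1:**
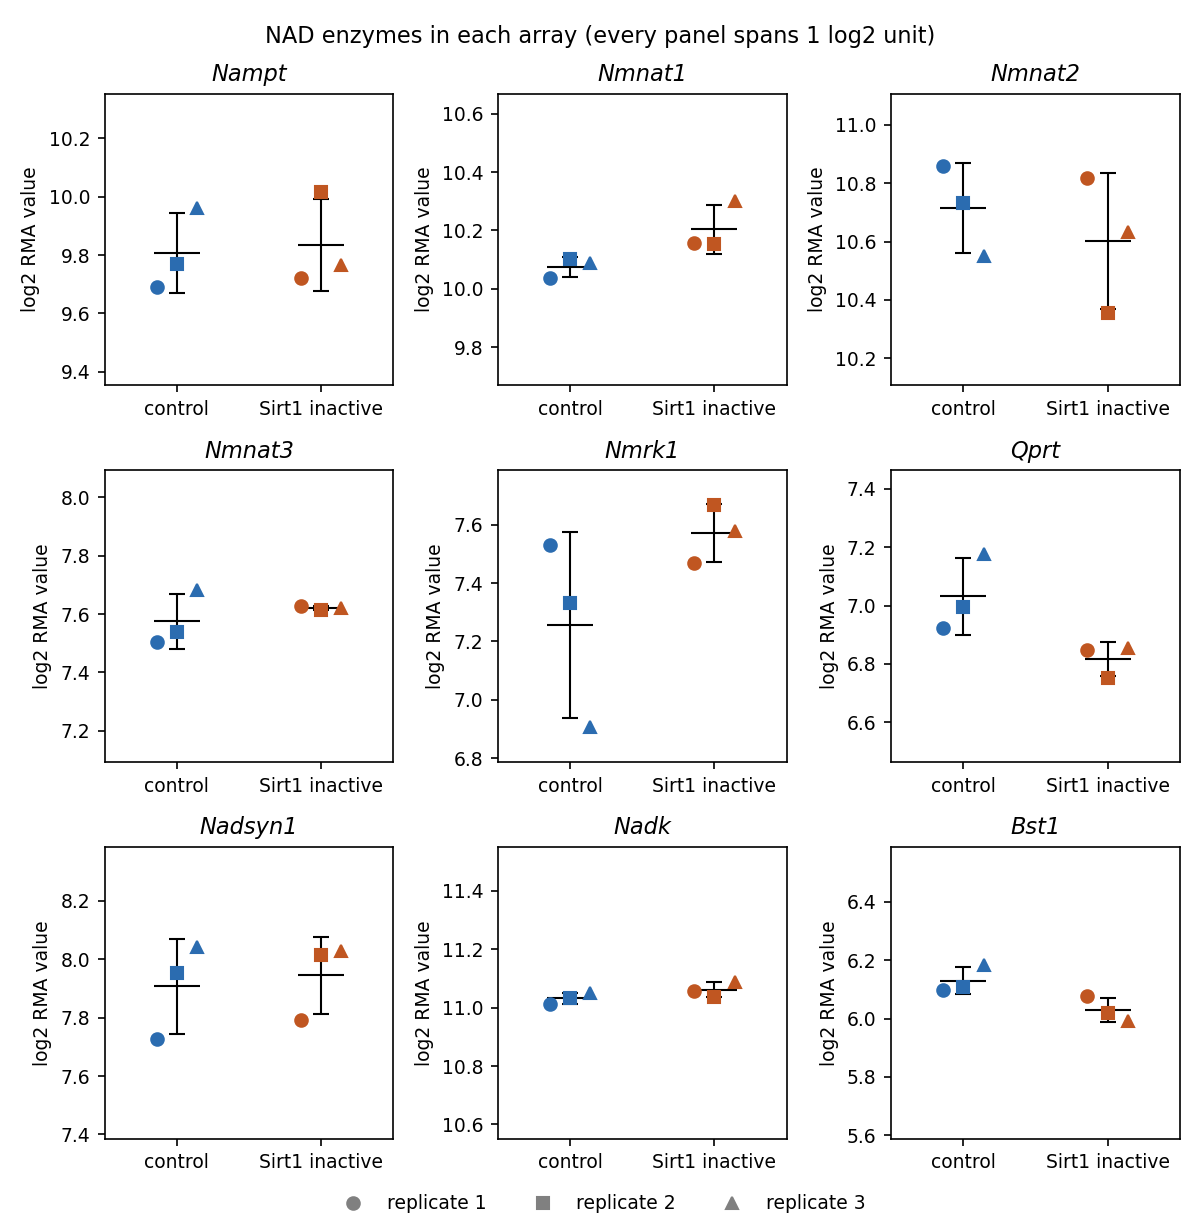
Log2 RMA value of each NAD enzyme (vertical axis, 1 log2 unit in every panel) in the 3 control and 3 Sirt1 inactive arrays. Points are arrays, with the replicate number given by the symbol, and bars are the mean ± SD (n = 3). The groups are apart for Nmnat1, Qprt and Bst1, and control replicate 3 is the low point of Nmrk1 at 6.91.

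Nampt, which sets the pace of salvage, had nearly the same level in both genotypes. It read 9.69, 9.77 and 9.96 in the controls, and 9.72, 10.01 and 9.77 where SIRT1 was inactive. The groups overlapped throughout, with control replicate 3 and Sirt1 inactive replicate 2 as the high arrays. The means were 9.81 ± 0.14 in control and 9.83 ± 0.16 without active SIRT1 (SD, n = 3), a difference of 0.03 (SE 0.10, 95% interval -0.22 to 0.27; limma, adjusted p = 0.984). On the RMA scale that interval spans 0.859 to 1.21 times the control level. Its sign also depended on single arrays: leaving out control replicate 1 gave -0.03, leaving out Sirt1 inactive replicate 2 gave -0.06, and leaving out control replicate 3 gave 0.10.

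The 3 NMNAT enzymes complete NAD in different parts of the cell, NMNAT1 in the nucleus, NMNAT2 at the Golgi apparatus and in axons, and NMNAT3 in mitochondria. Nmnat1 was the only one whose groups were apart. It read 10.04, 10.10 and 10.09 in control and 10.16, 10.15 and 10.30 in the Sirt1 inactive cultures. Every Sirt1 inactive array was thus above every control array, the nearest by a gap smaller than the range of either group. The means were 10.08 ± 0.03 and 10.20 ± 0.09 (SD, n = 3), a difference of 0.13 (SE 0.07, 95% interval -0.03 to 0.28), or 1.09-fold, which did not pass (limma, adjusted p = 0.959). By an exact two-sided permutation test p was 0.1, below which 3 arrays a group cannot go. The differences between arrays of the same replicate number were 0.12, 0.05 and 0.21. The mean level of 6 markers of the oligodendrocyte lineage was also higher in the Sirt1 inactive arrays, at 9.85 to 10.04 against 9.61 to 9.71, with 6 of 6 brighter than the median on every array. That mean was carried by Pdgfra (0.79), Gpr17 (0.75) and Sox10 (0.28), while Cspg4, Olig1 and Olig2 were at -0.12, -0.07 and -0.15, and the part of these markers in the Nmnat1 values was not tested. Without Sirt1 inactive replicate 3 the Nmnat1 difference was 0.08.

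Nmnat2, the form enriched in neurons, varied more between cultures than between genotypes. It read 10.86, 10.73 and 10.55 in control and 10.82, 10.36 and 10.63 without active SIRT1, so that the groups overlapped and the lowest value was that of Sirt1 inactive replicate 2. The difference was -0.11 (SE 0.13, 95% interval -0.42 to 0.20; limma, adjusted p = 0.959), 0.01 without Sirt1 inactive replicate 2, and -0.19 without control replicate 3. Neuroblast and neuron markers were lower in the same cultures: the mean level of the 7 markers was 8.24 to 8.38 in control and 7.86 to 8.13 in the Sirt1 inactive arrays, with 2 of the 7 brighter than the median on every array. Sirt1 inactive replicate 2 was the lowest array for these markers too. Sirt1 inactive replicate 1 had a marker mean of at most 8.13 and Nmnat2 at 10.82. Control replicate 3, with a marker mean of at least 8.24, had Nmnat2 at 10.55, below Sirt1 inactive replicates 1 and 3. The part of these markers in the Nmnat2 values, and in those of Qprt, which were also lower, was not tested. In bulk RNA fewer cells of a type cannot be told apart from less RNA per cell.

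Nmnat3 read 7.50, 7.54 and 7.68 in control and 7.63, 7.61 and 7.62 in the Sirt1 inactive group. The latter lay inside the range of the controls. Its difference was 0.05 (SE 0.07, 95% interval -0.11 to 0.20; limma, adjusted p = 0.959). Leaving out control replicate 1 gave 0.01 and leaving out control replicate 3 gave 0.10.

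Nmrk1, the kinase that makes NMN from nicotinamide riboside, had the largest difference of the set. In control it read 7.53, 7.33 and 6.91, and in the Sirt1 inactive group 7.47, 7.67 and 7.58. The groups overlapped, since control replicate 1 was above Sirt1 inactive replicate 1, and control replicate 3 was far below the rest. The means were 7.26 ± 0.32 and 7.57 ± 0.10 (SD, n = 3), a difference of 0.32 (SE 0.15, 95% interval -0.04 to 0.68; limma, adjusted p = 0.959), or 1.25-fold. Without control replicate 3 it was 0.14, and the same-numbered differences were -0.06, 0.34 and 0.67. In control replicate 3 astrocyte markers were low as well. The mean of 7 markers was 9.08 there, up to 9.84 in the other controls and 9.78 to 9.89 in the Sirt1 inactive arrays. By gene, the differences between genotypes, with control replicate 3 among the controls, were 1.06 for Gfap, 0.56 for Aqp4, 0.27 for Aldoc and 0.14 for Aldh1l1. They were not computed without that array, so they cannot be read as differences of genotype. Slc1a2 was at 0.01, Gjb6 at -0.02 and S100b at -0.19. Control replicate 3 was also lowest for the means of stem and progenitor, oligodendrocyte lineage, and mural and fibroblast markers. The part of these markers in the Nmrk1 values was not tested.

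Of the enzymes of the other routes, Qprt gave lower values in the Sirt1 inactive cultures. QPRT turns quinolinic acid, a product of tryptophan breakdown, into nicotinic acid mononucleotide. It read 6.92, 7.00 and 7.18 in control and 6.85, 6.75 and 6.86 in the Sirt1 inactive group. All 3 Sirt1 inactive arrays were below all 3 controls, with control replicate 3 the highest. The means were 7.03 ± 0.13 and 6.82 ± 0.06 (SD, n = 3), a difference of -0.21 (SE 0.08, 95% interval -0.41 to -0.02), which is 0.862 of the control level. The unadjusted p was 0.0331 and the adjusted p 0.959 (limma), and the exact permutation p was again 0.1. The difference was lower in 3 of 3 same-numbered pairs (-0.07, -0.25 and -0.32), and -0.14 without control replicate 3. Qprt was dimmer than the median probe set on all 6 arrays, and RMA values do not tell whether such a probe set is above background.

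Nadsyn1, the synthetase that adds the amide in the last step of the routes from tryptophan and nicotinic acid, read 7.73, 7.95 and 8.04 in control. In the Sirt1 inactive group it read 7.79, 8.01 and 8.03. Both groups held a low replicate 1 and 2 higher arrays. The difference was 0.04 (SE 0.10, 95% interval -0.21 to 0.28; limma, adjusted p = 0.979), and turned to -0.05 when control replicate 1 was left out and to -0.004 when Sirt1 inactive replicate 3 was, while it was 0.11 when control replicate 3 was left out.

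Nadk, the kinase that makes NADP from NAD, was the steadiest member. It read 11.01, 11.03 and 11.05 in control and 11.06, 11.04 and 11.09 without active SIRT1. All 6 arrays lay within 0.08 of each other and the groups overlapped. The difference was 0.03 (SE 0.05, 95% interval -0.10 to 0.16; limma, adjusted p = 0.966), which spans 0.934 to 1.11 times the control level. Leaving out either control replicate 1 or Sirt1 inactive replicate 3 gave 0.02.

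Bst1 (CD157) is an ectoenzyme that cleaves NAD and its precursors at the cell surface and is best known from blood and stromal cells. As Cd38 had no paired probe set, Bst1 was the only NAD-cleaving enzyme of the set to be measured. It read 6.10, 6.11 and 6.18 in control and 6.08, 6.02 and 5.99 in the Sirt1 inactive group. The groups did not overlap, although the gap between control replicate 1 and Sirt1 inactive replicate 1 was only 0.02. The difference was -0.10 (SE 0.06, 95% interval -0.24 to 0.04; limma, adjusted p = 0.959). Bst1 was dimmer than the median on all 6 arrays. Microglia and macrophage markers, a cell type that such cultures can hold, had a mean of 6.77 to 6.87 over 8 markers in control and 6.70 to 6.74 in the Sirt1 inactive arrays. By gene, Tmem119, P2ry12, Itgam and Trem2 were at -0.19, -0.17, -0.16 and -0.14. Ptprc was at -0.07, Cx3cr1 at -0.04, Csf1r at -0.01 and Aif1 at -0.001. Of the 8 markers, 2 were above the median on every array, and the part of these markers in the Bst1 values was not tested.

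**Figure D2:**
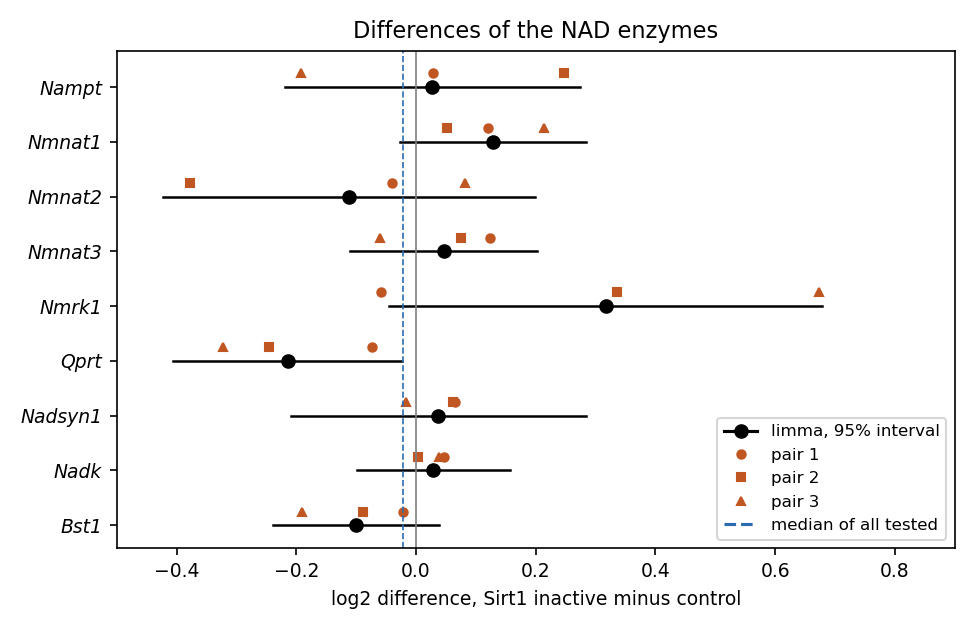
Log2 difference, Sirt1 inactive minus control, for each NAD enzyme. Black points are limma estimates with 95% intervals from 6 arrays, orange symbols are the differences between same-numbered arrays, and the dashed line is the median of all tested probe sets. Only the interval of Qprt (-0.41 to -0.02) leaves out 0, before adjustment for the number of probe sets.

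The same-numbered arrays of the genotypes deviated together, so the pairs were also read by themselves. Nmnat1 and Nadk were higher in 3 of 3 pairs and Qprt and Bst1 lower in 3 of 3, which makes 4 of 9 members with 1 sign throughout, against 31.6% of all probe sets. Within Nadk the pair differences were 0.05, 0.003 and 0.04, and within Bst1 -0.02, -0.09 and -0.19. With the replicate number as a block, again 0% of probe sets passed, 1 member (Qprt) had an unadjusted p under 0.05, at 0.0247, against 7.58% of all probe sets, and the adjusted p of the members ran from 0.656 for Qprt to 0.945 for Nampt (limma). In the paired fit without number 3 the difference was 0.14 for Nmrk1, -0.16 for Qprt and 0.09 for Nmnat1, and none passed (limma, adjusted p = 0.776, 0.635 and 0.793). Nmnat2 had the largest difference of the set there, at -0.21 (limma, adjusted p = 0.623). Nampt, at 0.03 over all arrays, was at 0.14 in that fit (limma, adjusted p = 0.707).

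The members differed widely in how far cultures of 1 genotype lay apart. The SD between arrays within a genotype was 0.24 for Nmrk1 and 0.20 for Nmnat2, larger than for 92.1% and 87.9% of all probe sets. Nampt and Nadsyn1, at 0.15 each, stood above 76.8% and 76.6%. Qprt, at 0.10, was near the median of 0.099. The SD was 0.07 for Nmnat3, 0.06 for Nmnat1, 0.04 for Bst1 and 0.02 for Nadk, the last larger than for 0.954% of probe sets. Nmrk1 and Nmnat2 accordingly had the widest 95% intervals of the set, and Nadk the narrowest. Control replicate 3 was the array farthest from the mean for 3 of the 9 members, Nmrk1, Qprt and Bst1, and for 36.3% of all probe sets.

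**Figure D3:**
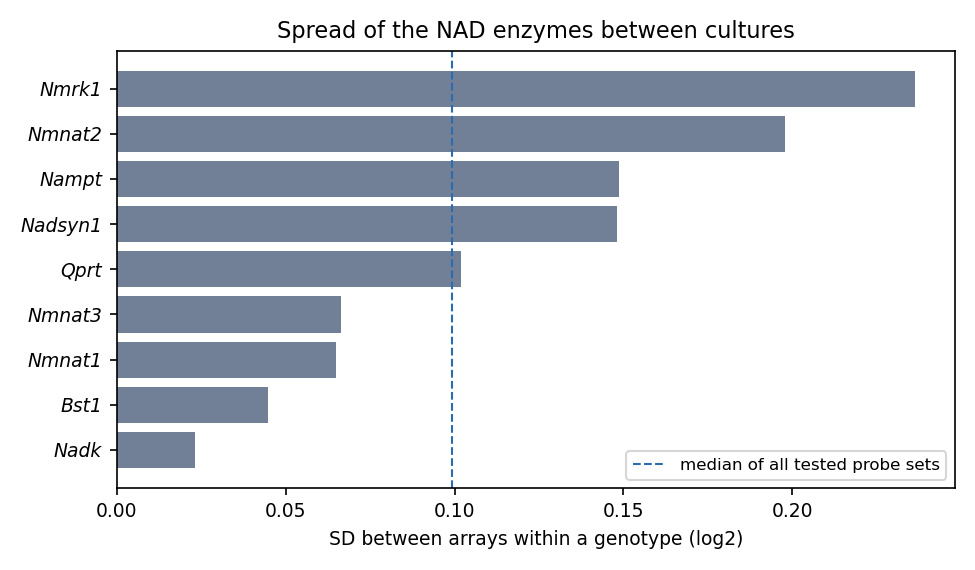
Pooled SD of each NAD enzyme between arrays of the same genotype (log2, bars from 0), with the median of all tested probe sets as a dashed line at 0.099. Nmrk1 and Nmnat2 have the widest spread and Nadk the narrowest.

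By the shape of its values over the 6 arrays, Nampt was most like Arc, an immediate early gene of neurons, Phf14, a PHD finger protein, and Fpgt, an enzyme of fucose salvage. The measure was the mean absolute distance between values centred and scaled for each gene, over 10113 other genes at or above the median brightness, and came to 0.083, 0.106 and 0.114. These genes had the same high arrays as Nampt, for example Arc with 9.23 in control replicate 3 and 9.28 in Sirt1 inactive replicate 2 against 8.95 to 9.03 elsewhere. With 6 arrays and so many genes, close likeness of this kind is a description only.

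The rest of NAD metabolism was read from lists of 47 other genes, of which 46 were measured. Parp4 had no probe set paired with it alone. None of the 46 passed (limma; background 0%), 19 were above 0 and 27 below, their median was -0.04, and 1 had an unadjusted p under 0.05, against 3.61% of all probe sets. The groups did not overlap for 3 of them, against 9.33%. Without control replicate 3 the median of the 46 was -0.01.

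Genes of the tryptophan route, which lead to the substrate of QPRT, had 6 of 8 differences below 0, against 60.1% of all probe sets, with a median of -0.09 (-0.06 without control replicate 3). Ido1, which opens the route in many tissues, differed by -0.15, Haao, which makes the precursor of quinolinic acid, by -0.16, and Acmsd, which diverts that precursor away from NAD, by -0.11 (limma, adjusted p = 0.959 for each). Ido1 and Acmsd were dim, at 5.50 to 5.86 and 5.24 to 5.50 over all arrays. Haao, at 6.38 to 6.75, was also below the median of every array, as were Ido2, Kmo, Kynu and Tdo2. Only Afmid of this list was above it, so the signs come mostly from dim probe sets. Without control replicate 3 Haao was at -0.08 and Acmsd at -0.06. Of the genes that handle other precursors, 3 of 7 were above 0, or 4 of 7 without control replicate 3. Pnp, a phosphorylase of nucleosides including nicotinamide riboside, differed by 0.25, Nt5e (CD73), which removes the phosphate of NMN outside the cell, by -0.28, and Slc12a8, reported as an NMN transporter, by -0.10. All 3 rested on control replicate 3: without it they were 0.06, -0.03 and 0.008.

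Among genes of NADP, transport and turnover 5 of 6 were above 0, with a median of 0.08, but without control replicate 3 this was 2 of 6, with a median of -0.01. Nudt12, a hydrolase of NADH and NAD caps, differed by 0.19, Slc25a51, the mitochondrial NAD carrier, by -0.08, and Nnt, the mitochondrial transhydrogenase, by 0.10 (limma, adjusted p = 0.959 for each). Without control replicate 3 Nudt12 was at 0.07 and Nnt at -0.003.

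Among the other consumers, 9 of 14 PARP genes were below 0, with or without control replicate 3, against 60.1% and 53.7% of all probe sets. Parp8 had the lowest values relative to control of all 46 genes. It read 9.79, 9.94 and 10.17 in control and 9.49, 9.60 and 9.79 in the Sirt1 inactive cultures. The groups met at 9.79 without crossing, and every same-numbered pair was lower. Its difference was -0.34 (SE 0.12; limma, unadjusted p = 0.0229, adjusted p = 0.959), and -0.24 without control replicate 3. Tnks2 and Tnks, the tankyrases, differed by -0.07 and -0.08. Parp1, the main NAD consumer of DNA repair, named after its values were seen, differed by -0.05, a sign that turned without control replicate 3 (0.01). Sarm1, the NAD hydrolase of axon degeneration, differed by -0.17 (-0.03 without control replicate 3). Art3 and Art5, listed for their ADP-ribosyltransferase family, differed by 0.06 and -0.06 (0.03 for both without that array). Art3 was dim, at 5.25 to 5.52 over all arrays. Of the 6 other sirtuins 4 were below 0. Sirt4 differed by -0.13, Sirt6 by -0.11 and Sirt2 by -0.11 (limma, adjusted p = 0.959 for each). Without control replicate 3 Sirt6 was at -0.06 and Sirt2 at -0.05.

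**Figure D4:**
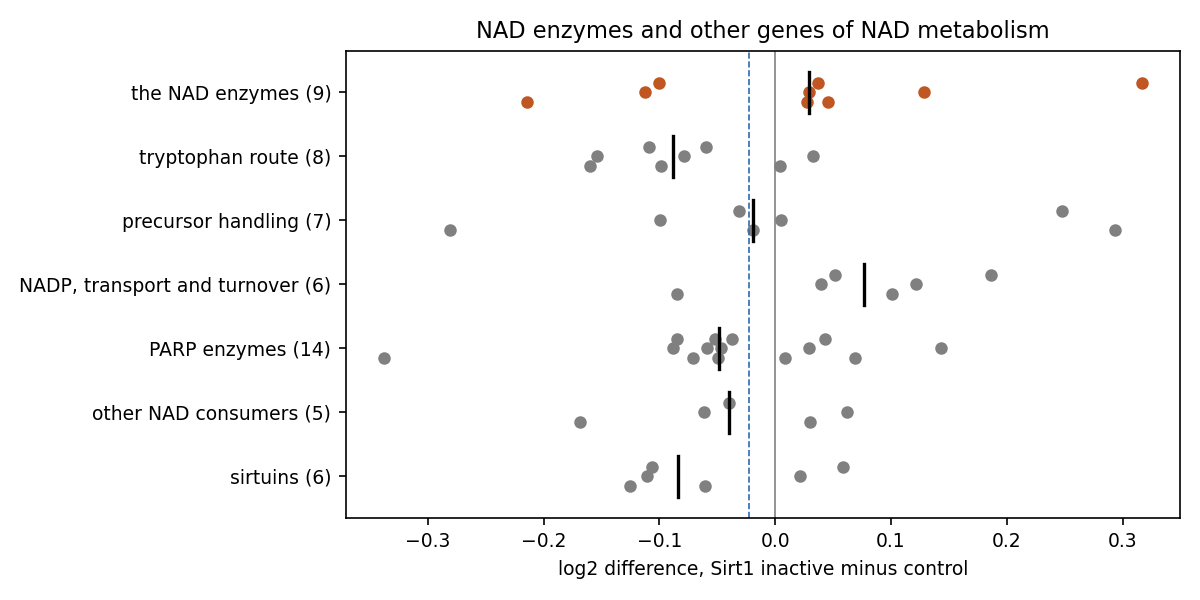
Log2 differences, Sirt1 inactive minus control, of the 9 NAD enzymes (orange) and of 46 other genes of NAD metabolism in 6 lists (grey), with the number of genes in brackets. Black bars are list medians and the dashed line is the median of all tested probe sets; no gene shown passed the test.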

How the data were processed

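Total RNA of 6 cultures was hybridised to 1-colour arrays. The authors deposited log2 expression values per probe set, adjusted for background and normalized with RMA, per the series' design text and the submitters' processing notes; the log2 scale was read from the values. Neither the RMA version nor the annotation build is stated in the sources used. Of 34760 probe sets, the platform annotation pairs 21640 with 1 gene and 1321 with several; these 22961 were tested together. No further normalization was applied.

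All 6 arrays entered 1 linear model per probe set in limma 3.58.1 (R 4.3.3), with genotype as the term and empirical Bayes moderation. P-values are two-sided, with Benjamini-Hochberg adjustment over the tested probe sets and a threshold of 0.05. The exact permutation test is two-sided. The fit was tested on simulated data with independent noise between arrays and differences larger than that of any member. That test does not show how well differences as small as those of the members are found. Arrays have no read depth, and their number limits the precision.

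The titles call the samples biological replicates; no source says that equal numbers share a mouse or a day. Deviations from the group means correlated between same-numbered arrays at 0.47, 0.36 and 0.27, so the replicate number was also fitted as a block.

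The members, the lists and the rule for named genes were chosen with earlier results of these data known. The rule names all members and, from each list, the genes past the threshold or else the 3 with the smallest unadjusted p. Promoters come from RefSeq, GRCm38.p6.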

Additional observations from a re-analysis of the deposited data

How the results depend on the processing

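Every fit was repeated under 15 alternatives: 2 other scalings, 3 other sets of tested probe sets, the replicate number as a block, an intensity trend with a robust prior, array weights, each array left out in turn and, chosen after seeing the data, the block without both arrays of number 3. Across the 133 values these gave for the 9 members, 0 passed, and 0 of the other NAD pathway genes passed. In every alternative but the block without number 3, 0 of all probe sets passed as well, so these counts say nothing particular about the members. Qprt and Bst1 gave no value when probe sets below the median were left out. With other sets of tested probe sets, the replicate block, or the trend and robust prior, a member's difference is the main one by construction. Its sign could not turn there. Counting these values, the sign was the same in 128 of the 133. The other 5 came from leaving out 1 array, where the difference ran from -0.063 to 0.10 for Nampt, from -0.22 to 0.012 for Nmnat2 and from -0.053 to 0.11 for Nadsyn1. The median difference of the members ran from -0.030 without control replicate 1 to 0.10 without control replicate 3. With the replicate block the median was 0.03, the main value by construction, and the block changed no call. Each member has 1 probe set, so no other probe set of the same gene could be tried. In the block without number 3, 19 of 22961 probe sets passed, none of them a member.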
